A study of Mus musculus with 4 samples.

Results

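The surface of a tumour cell carries proteins that lymphocytes read as signs of stress, of health or of inhibition, and the mRNAs of 10 such proteins were examined in SW620 cells treated with F5446. The genes were MICA, MICB, ULBP1, ULBP2 and ULBP3, which encode ligands of the activating receptor NKG2D; PVR and NECTIN2, which encode ligands of the receptors DNAM-1 and TIGIT; CD274, which encodes the checkpoint ligand PD-L1; B2M, the light chain of major histocompatibility complex (MHC) class I; and CALR, which encodes calreticulin. They were taken by gene symbol from the platform annotation, and all 10 had a named probe set, out of 14884 genes named on the array. Where a gene had several probe sets, the one of highest mean over the 4 arrays was used.

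SW620 is an established line from a metastasis of a human colon carcinoma. One group was SW620 cells given 50 nM F5446 for 2 days (2 arrays), a compound presented as selective for the H3K9 methyltransferase SUV39H1; the other was SW620 cells left untreated as controls (Ctrl, 2 arrays), and both groups grew in RPMI medium with serum. A vehicle is not named for the controls, and all arrays came from this 1 line. Mouse is listed as the organism in the sample records, whereas both the line and the annotated genes are human, and the data were read as human. Whether the replicate arrays stem from separate cultures is not stated. The p-values rest on the spread between replicate arrays, which may be technical. For each gene that spread was estimated in part from other genes of like signal.

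Natural killer (NK) cells and CD8+ T cells carry NKG2D, which binds the MIC and ULBP families. These ligands are scarce on most healthy cells and are induced by DNA damage, heat shock, the integrated stress response or oncogene activity, by routes that differ between ligands. PVR and NECTIN2 are shared by the activating receptor DNAM-1 and the inhibitory receptor TIGIT. Calreticulin is a lectin chaperone of the endoplasmic reticulum that helps to load MHC class I and, when exposed on dying cells, promotes their uptake by phagocytes. An array reads mRNA: surface protein, secreted protein and calreticulin exposure were not measured. In bulk RNA, fewer cells expressing a gene and less RNA per cell cannot be told apart.

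The ligands did not move as 1 group. PVR, ULBP1 and ULBP2 were higher after F5446, while MICA, MICB, ULBP3, NECTIN2 and CALR were lower, and CD274 and B2M did not pass the test. Thus 8 of the 10 genes passed at an adjusted p under 0.05 in limma's test over all named genes, 3 higher and 5 lower. Over all 14884 genes 40.9% passed, 18.2% higher and 22.7% lower, so a call in itself was common in these cells. The F5446 arrays lay above both Ctrl arrays at 3 of the 10 genes and below both at 6, against 28.4% and 37.7% of all genes (66.2% in either direction). The median log2 fold change of the 10 genes was -0.22, against -0.05 over all named genes. The genes were chosen with earlier results of these data known, so these counts describe them and do not set them apart. Only 6 of the 8 calls, PVR and ULBP1 higher and MICA, MICB, NECTIN2 and CALR lower, held in all 12 alternative settings; those of ULBP2 and ULBP3 did not.

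**Figure D1:**
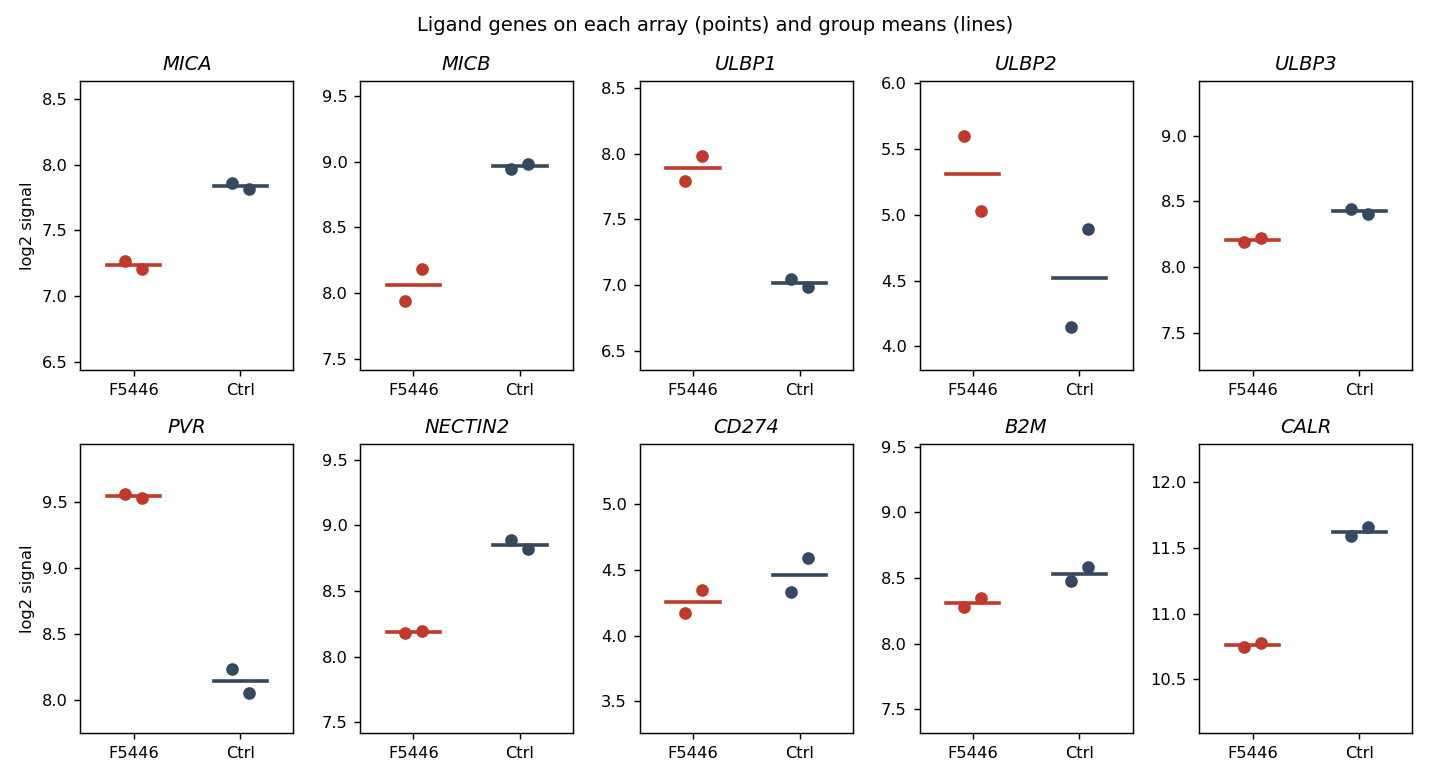
Log2 signal of each ligand gene on the 2 F5446 arrays and the 2 Ctrl arrays (points), with group means as lines; every panel spans the same log2 range, and levels are not comparable between panels. PVR and ULBP1 sit higher on both F5446 arrays, MICA, MICB, NECTIN2 and CALR sit lower, and the groups overlap for CD274.

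The MIC genes fell together. MICB, a stress-induced MHC class I-like protein that binds no peptide, had a log2 signal of 7.94 and 8.18 on the F5446 arrays, against 8.95 and 8.98 on the Ctrl arrays (probe set 17038075). Both F5446 arrays lay below both Ctrl arrays, by more than the gap of 0.24 between the F5446 arrays. The log2 fold change was -0.91 ± 0.09 (SE; limma adjusted p = 4.08e-05). MICA, its close relative, had a log2 signal of 7.264 and 7.203 on the F5446 arrays, against 7.86 and 7.82 on the Ctrl arrays (probe set 17006590). These values are tight within each group and do not overlap. The log2 fold change was -0.61 ± 0.09 (SE; limma adjusted p = 0.00039). MICA and MICB are similar in sequence, and their signals could in part be shared.

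MICB had 7 probe sets under its symbol, which allowed its fall to be read more than once on the same arrays. All 7 were lower after F5446 in a fit over all probe sets, with log2 fold changes from -1.07 to -0.83 and adjusted p of at most 0.0046 (limma). Probe sets 17006616 and 17026250 had identical values on every array, so there were at most 6 distinct readings. How far the other probe sets share probes is not known here. All 7 measure the same RNA samples and are not replicates of the treatment.

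**Figure D2:**
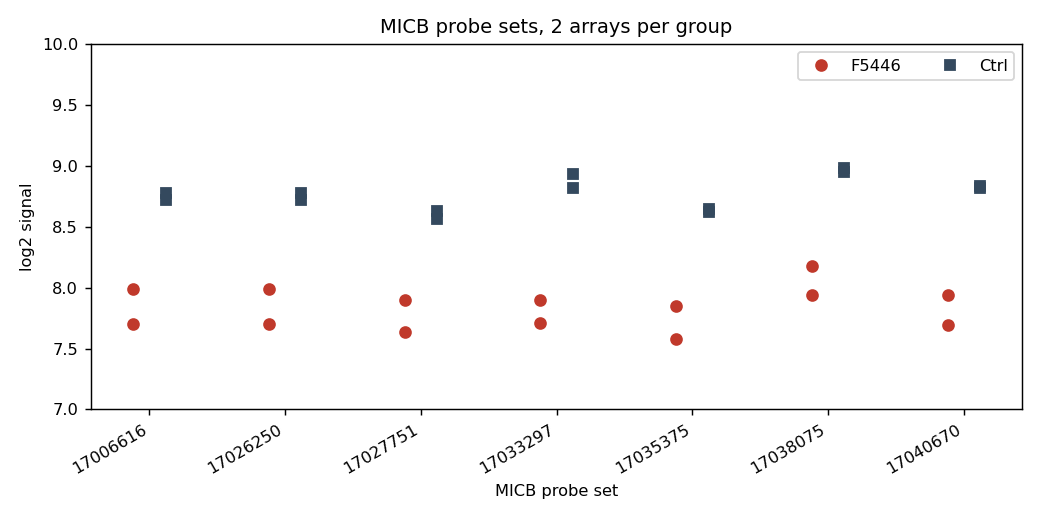
Log2 signal of the 7 MICB probe sets on the F5446 arrays (circles) and the Ctrl arrays (squares), 2 arrays per group. At each probe set both F5446 values lie below both Ctrl values.

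The ULBP genes, whose products are mostly held to the membrane by a lipid anchor, split. ULBP1 had a log2 signal of 7.79 and 7.98 on the F5446 arrays, against 7.05 and 6.98 on the Ctrl arrays (probe set 17013657). Both F5446 arrays lay above both Ctrl arrays, a 1.83-fold rise with a log2 fold change of 0.88 ± 0.10 (SE; limma adjusted p = 8.53e-05). ULBP3 had a log2 signal of 8.19 and 8.22 on the F5446 arrays, against 8.44 and 8.41 on the Ctrl arrays (probe set 17024710). Its fall was small, 1.16-fold, at a log2 fold change of -0.22 ± 0.07 (SE; limma adjusted p = 0.040). After centring every array on its named-gene median it was -0.093 (adjusted p = 0.38), and the call was lost without any of the 4 arrays, at adjusted p of 0.14 and 0.087 without Ctrl replicate 1 and 2, and of 0.19 and 0.13 without F5446 replicate 1 and 2.

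ULBP2 had a log2 signal of 5.602 and 5.027 on the F5446 arrays, against 4.15 and 4.89 on the Ctrl arrays (probe set 17013650). The groups did not overlap, but the nearest values of the 2 groups lay closer to each other than the arrays within either group. The log2 fold change of 0.79 ± 0.27 (SE; limma adjusted p = 0.042) rested on single arrays. It was 0.42 without Ctrl replicate 1 (adjusted p = 0.30), 0.51 without F5446 replicate 1 (0.35), 1.08 without F5446 replicate 2 (0.060) and 1.17 without Ctrl replicate 2 (0.021); with the replicate number as a block the adjusted p was 0.10.

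The remaining NKG2D ligands measured were RAET1L, also known as ULBP6, and RAET1E, also known as ULBP4. RAET1L had a log2 signal of 6.65 and 6.16 on the F5446 arrays, against 4.32 and 3.97 on the Ctrl arrays. This was a 4.80-fold rise, with a log2 fold change of 2.26 ± 0.20 (SE; limma adjusted p = 1.76e-05). Its Ctrl values lay under 4.42, the median of all probe sets, so the fold may be smaller than the true one. RAET1L and ULBP2 are close copies in sequence, and which of them gave rise to either signal cannot be told apart here. RAET1E (log2 signal 4.277 and 4.003 on the F5446 arrays, 3.81 and 4.19 on the Ctrl arrays) did not pass. In the list of 8 NKG2D ligands, 7 were measured. Of the 7, 3 rose, 3 fell and 1 did not pass, with a median log2 fold change of 0.14. Over all genes 18.2% were higher and 22.7% lower. RAET1G lacked a named probe set and was not analysed here.

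The largest rise among the 10 genes was that of PVR. Its product, CD155, is an adhesion molecule known as the poliovirus receptor and is often abundant on carcinoma cells. PVR had a log2 signal of 9.57 and 9.53 on the F5446 arrays, against 8.23 and 8.05 on the Ctrl arrays (probe set 16862996). The groups were far apart relative to the gap of 0.18 between the Ctrl arrays. The rise was 2.65-fold, with a log2 fold change of 1.41 ± 0.08 (SE; limma adjusted p = 1.21e-06). NECTIN2, which encodes CD112, went the other way. Its log2 signal was 8.18 and 8.20 on the F5446 arrays, against 8.89 and 8.82 on the Ctrl arrays (probe set 16863091). The fall was 1.59-fold, with a log2 fold change of -0.67 ± 0.07 (SE; limma adjusted p = 6.39e-05).

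The opposite course of these receptor-sharing ligands can also be given as the difference between them on each array. Such differences restate the fold changes above and are not a further observation. The log2 difference of PVR minus NECTIN2 lay 2.10 and 2.04 above the Ctrl mean on the F5446 arrays, against 0.06 above and 0.06 below it on the Ctrl arrays. Such a difference on the same array is unaffected by scaling an array as a whole. The same held for ULBP1 minus MICB, which lay 1.81 and 1.76 above the Ctrl mean on the F5446 arrays, with the Ctrl arrays within 0.05 of it. MICB minus MICA shifted by -0.45 and -0.15 on the F5446 arrays, so the larger fall of MICB was uneven. An exact permutation test of 2 arrays against 2 cannot go below a two-sided p of 0.333; these differences between genes are given as a description, with no test. Among the related nectin and adhesion genes, NECTIN1, NECTIN3, NECTIN4 and CADM1 had log2 fold changes of -0.20, -0.05, -0.20 and -0.39 and did not pass. Of the 6 genes in that list 1 rose and 1 fell, at a median of -0.20. The shares over all genes were 18.2% higher and 22.7% lower.

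**Figure D3:**
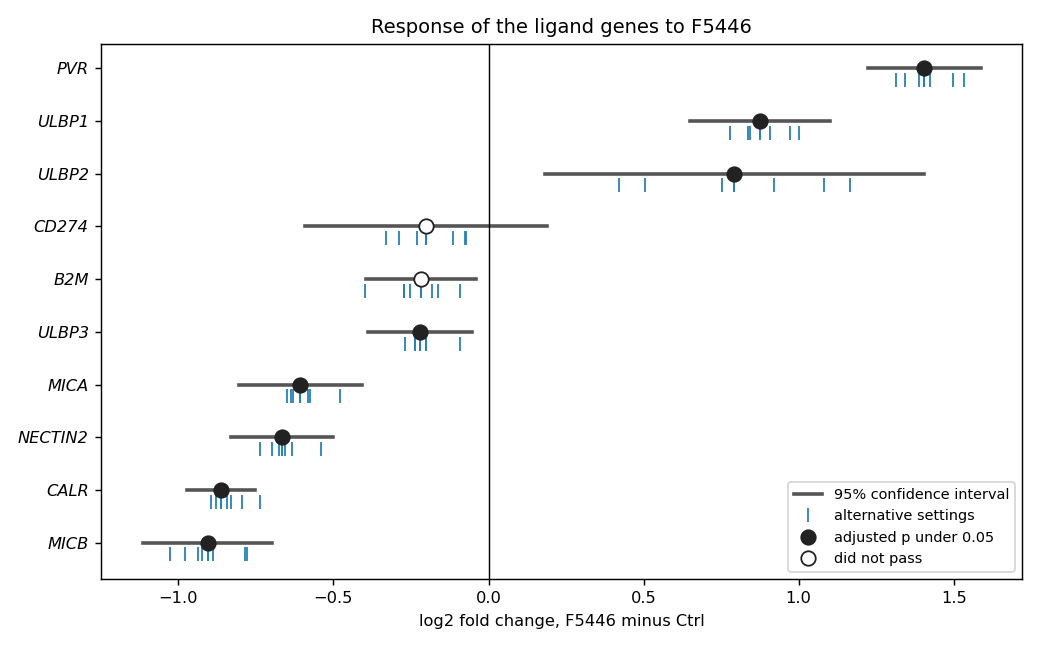
Log2 fold change (F5446 minus Ctrl) of each ligand gene with its 95% confidence interval from limma; blue ticks give the value in the alternative settings, and open circles mark genes that did not pass at an adjusted p of 0.05. PVR, at 1.41, and MICB, at -0.91, mark the ends, and the alternative values of each gene stay on 1 side of 0.

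CD274 was dim. Its log2 signal was 4.17 and 4.35 on the F5446 arrays, against 4.33 and 4.59 on the Ctrl arrays (probe set 17083357), near 4.42, the median of all probe sets, and the groups overlapped. The log2 fold change of -0.20 had a 95% confidence interval from -0.59 to 0.19 (limma adjusted p = 0.43). That interval covers no change, a fall down to -0.59 and a smaller rise up to 0.19. B2M had a log2 signal of 8.28 and 8.35 on the F5446 arrays, against 8.48 and 8.58 on the Ctrl arrays (probe set 16800450). The F5446 arrays were both lower, but the log2 fold change of -0.22 ± 0.08 (SE) missed the threshold (limma adjusted p = 0.052). A second, dimmer B2M probe set, 16808550, read 5.01 and 5.04 on the F5446 arrays, against 5.48 and 5.72 on the Ctrl arrays, and passed in the fit over all probe sets (log2 fold change -0.58, adjusted p = 0.042).

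Around CD274, checkpoint and co-stimulatory ligands were examined. Of 17 measured genes in this list, 3 rose, 2 fell and 12 did not pass, where 18.2% of all genes were higher and 22.7% lower, and 8 lay under the median of all probe sets; the list's median log2 fold change was 0.00079. CEACAM1, which encodes an adhesion molecule that can inhibit NK and T cells, rose 2.00-fold, with a log2 signal of 8.50 and 8.46 on the F5446 arrays, against 7.56 and 7.40 on the Ctrl arrays. VSIR, which encodes the checkpoint protein VISTA, rose 1.44-fold, and CD47, the "don't eat me" signal read by phagocytes, rose 1.27-fold. CD24, which encodes another signal that restrains phagocytes, fell 2.66-fold, to a log2 signal of 8.86 and 9.01 on the F5446 arrays, against 10.21 and 10.49 on the Ctrl arrays. CD24 has near-identical copies in the genome, so its signal may be mixed. ICOSLG, which encodes the ligand of the co-stimulatory receptor ICOS, fell 1.96-fold, with a dim mean of 4.28 in the F5446 group, so the fold may be smaller than the true one. The VSIR call was lost in 3 of the 12 settings, among them those without Ctrl replicate 2 (adjusted p = 0.12) or F5446 replicate 2 (0.18). The CD47 call was lost in 7, among them those without Ctrl replicate 1 (0.19), Ctrl replicate 2 (0.11) or F5446 replicate 1 (0.31).

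CALR had the narrowest interval of the 10 genes. In this fit the width depends on signal as well as on array spread, and CALR had the highest signal of the 10. Its log2 signal was 10.74 and 10.78 on the F5446 arrays, against 11.59 and 11.66 on the Ctrl arrays (probe set 16858774). The arrays of a group differed by at most 0.06, and the groups were far apart. The log2 fold change was -0.86, with a 95% confidence interval from -0.97 to -0.75 (limma adjusted p = 1.08e-06). CANX, which encodes its membrane-bound partner calnexin, had a log2 signal of 11.05 and 11.06 on the F5446 arrays, against 10.85 and 10.90 on the Ctrl arrays, a 1.13-fold rise (limma adjusted p = 0.014). This small call was lost in 5 of the 12 settings, among them those that left out Ctrl replicate 1, at an adjusted p of 0.083, and either F5446 array, at 0.078 and 0.098.

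The other genes of the calreticulin and endoplasmic reticulum chaperone cycle also went both ways. Of 17 measured, 4 rose, 5 fell and 8 did not pass, with a median log2 fold change of -0.12. Over all genes 18.2% were higher and 22.7% lower. SEL1L, which helps to clear misfolded proteins from the endoplasmic reticulum, rose 1.93-fold. PRKCSH, which encodes the beta subunit of the glucosidase that trims glycans for calreticulin and calnexin, fell 1.53-fold, and SDF2L1, a cofactor of the chaperone BiP, fell 1.70-fold. The falls were completed by CRELD2 (1.49-fold) and MLEC (1.31-fold), and the rises by HYOU1 (1.21-fold) and ERP44 (1.19-fold). The count of rises was 1 to 4 with 1 array left out and 1 without an intensity trend. The HYOU1 call was lost without F5446 replicate 1 (adjusted p = 0.054), as was that of CRELD2 (0.059), and the ERP44 call without Ctrl replicate 1 (0.10), F5446 replicate 1 (0.062) or F5446 replicate 2 (0.14). UGGT1, which marks misfolded glycoproteins for another round with calreticulin, had a log2 fold change of -0.01 and did not pass.

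Within the MHC class I list 12 of 32 genes were measured. Of the 12, 3 rose, 3 fell and 6 did not pass, at a median log2 fold change of -0.03. The shares over all genes were 18.2% higher and 22.7% lower. HFE, a class I-like protein that regulates iron uptake and presents no peptide, fell 4.42-fold, with a log2 signal of 3.77 and 3.45 on the F5446 arrays, against 5.97 and 5.54 on the Ctrl arrays; its F5446 values were dim, so the fold may be smaller than the true one. TAPBP, which encodes tapasin, the partner of calreticulin in peptide loading, fell 1.30-fold (limma adjusted p = 0.0029). IRF2, a transcription factor of the class I pathway, rose 1.48-fold, and ERAP1, the peptidase that trims peptides for class I, rose 1.27-fold, beside CANX; CALR was the other gene that fell. The ERAP1 call was lost without any of the 4 arrays, at adjusted p from 0.065 to 0.12. The peptide transporter genes TAP1 and TAP2 lacked a named probe set and were not analysed here, and class I presentation as a whole was thus not covered.

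Among danger and phagocytosis signals, 7 of 14 rose, 3 fell and 4 did not pass, at a median of 0.20, against 18.2% higher and 22.7% lower over all genes. After quantile normalization 5 rose and 5 fell. Besides CALR, the falls were those of QPCT, a glutaminyl cyclase gene (1.61-fold), and BCAP31, a membrane protein gene of the endoplasmic reticulum (1.33-fold); the QPCT call was lost if Ctrl replicate 2 (adjusted p = 0.070) was left out, or F5446 replicate 2 (0.082). QPCTL, a related gene named after its value was seen, rose 1.63-fold (limma adjusted p = 0.00026) and kept its call in all 12 settings. ERO1B, an oxidase of the endoplasmic reticulum, rose 3.48-fold. This fold may be smaller than the true one, since the Ctrl values of ERO1B, 3.82 and 4.22, lay under the median of all probe sets. The gene ANXA1, which encodes annexin A1, an attractant that dying cells release to phagocytes, rose 2.52-fold, with a log2 signal of 9.38 and 9.48 on the F5446 arrays, against 8.004 and 8.196 on the Ctrl arrays. EIF2AK3, which encodes PERK, the kinase required for calreticulin exposure in immunogenic cell death, rose 2.26-fold, while CALR fell. HSPA1A, an HSP70 gene, rose 3.09-fold, and its near-identical copy HSPA1B could share this signal. HMGB1, a nuclear protein released by dying cells, had a log2 fold change of -0.01 and did not pass.

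Ligands of other NK cell receptors and adhesion molecules were examined next. Of 8 measured, 1 rose, 3 fell and 4 did not pass, at a median of -0.24. Over all genes 18.2% were higher and 22.7% lower. CD58, which encodes the ligand of CD2 on T and NK cells, rose 3.30-fold, with a log2 signal of 8.15 and 8.29 on the F5446 arrays, against 6.45 and 6.54 on the Ctrl arrays. CD99 fell 1.86-fold, with a log2 signal of 9.39 on both F5446 arrays, against 10.21 and 10.36 on the Ctrl arrays. NCR3LG1, which encodes B7-H6, the ligand of the NK receptor NKp30, fell 1.22-fold, and ICAM1, the ligand of the integrin LFA-1, fell 1.37-fold. The log2 signal of ICAM1, 4.69 and 4.86 on the F5446 arrays, against 5.17 and 5.28 on the Ctrl arrays, lay little above 4.42, the median of all probe sets. With each array centred, NCR3LG1 and ICAM1 did not pass (adjusted p = 0.10 and 0.12), and the ICAM1 call was lost without any of the 4 arrays, at adjusted p from 0.082 to 0.22. The NCR3LG1 call was lost without Ctrl replicate 1 (0.052), F5446 replicate 1 (0.059) or F5446 replicate 2 (0.065).

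MICA, MICB and the ULBP proteins can be cut from the cell surface by metalloproteases, which yields soluble ligand. Genes of this shedding machinery and its inhibitors rose in 7 of 13 cases, fell in 2 and did not pass in 4, at a median of 0.34, where 18.2% of all genes were higher and 22.7% lower. ADAM17, which encodes a sheddase of MICA and MICB, rose 2.17-fold, with a log2 signal of 9.42 and 9.36 on the F5446 arrays, against 8.29 and 8.25 on the Ctrl arrays. RHBDF1, which encodes iRhom1, a rhomboid-like protein needed for ADAM17 maturation, rose 6.58-fold, with a log2 signal of 8.68 and 8.67 on the F5446 arrays, against 6.26 and 5.65 on the Ctrl arrays. MMP14, a membrane metalloprotease that can also cleave MICA, rose 2.60-fold, and TIMP3, an inhibitor of ADAM17, rose 2.22-fold. A second, dim TIMP3 probe set had a log2 fold change of -0.06, and the mean of both gave 0.55, against 1.15 for the brighter one. ADAM10, a sheddase of the MIC proteins named after its value was seen, fell 1.58-fold, and RHBDF2, which encodes iRhom2, fell 1.21-fold. The RHBDF2 call was lost in 6 of the 12 settings, among them those with arrays centred (adjusted p = 0.23) and without Ctrl replicate 1 (0.20), F5446 replicate 1 (0.12) or F5446 replicate 2 (0.20).

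Factors described as inducers or repressors of NKG2D ligands passed in 11 of 14 cases, 7 higher and 4 lower, at a median of 0.34, where 40.9% of all genes passed, 18.2% higher and 22.7% lower. The 4 that fell belong to the DNA damage and cell cycle routes: CHEK1, a checkpoint kinase, fell 3.71-fold, CHEK2 2.68-fold, and the transcription factors E2F2 and E2F1 2.79-fold and 2.42-fold. ATR and E2F3, of the same routes, had log2 fold changes of -0.20 and -0.17 and did not pass. XBP1, a transcription factor of the unfolded protein response, rose 3.13-fold. The other members that rose were named after their values were seen. They were the oncogene MYC (2.28-fold), the NF-kB subunit gene RELA (1.73-fold), STAT3 (1.69-fold), ATF4 (1.58-fold), SP1 (1.49-fold) and EGR1 (1.46-fold). The log2 fold change of EGR1, 0.54, was 0.82 without Ctrl replicate 1 and 0.27 without Ctrl replicate 2, and its call was lost without F5446 replicate 1 (adjusted p = 0.13) or F5446 replicate 2 (0.12). ATF4, a transcription factor of the integrated stress response known to induce ULBP1, had a log2 signal of 10.72 and 10.71 on the F5446 arrays, against 10.13 and 9.98 on the Ctrl arrays. STAT3 has been described as a repressor of MICA, and MYC and RELA as inducers of NKG2D ligands. HSF1, the heat shock factor that acts on the MICA and MICB promoters, had a log2 fold change of 0.15 and did not pass. Transcript levels do not give the activity of these factors, and whether they act on the ligand genes in these cells was not tested.

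**Figure D4:**
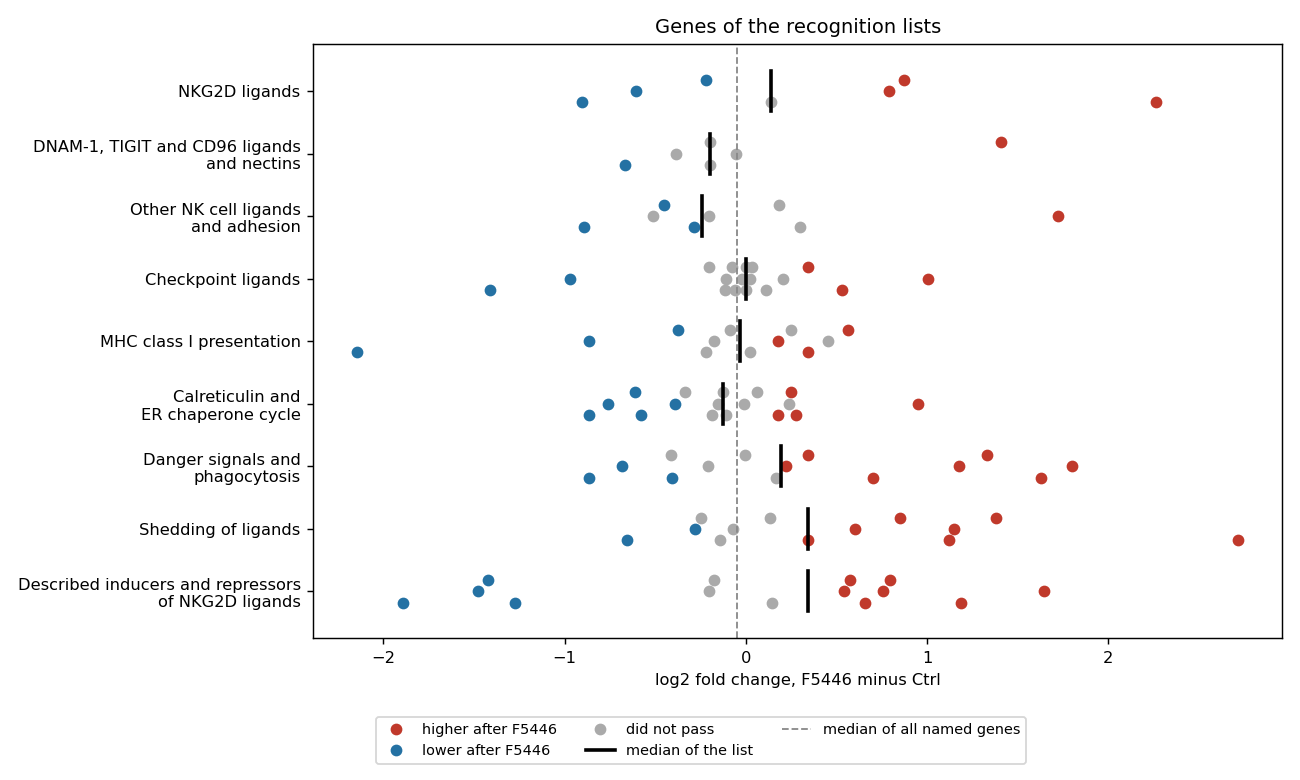
Log2 fold change (F5446 minus Ctrl) of each measured gene in the 9 recognition lists (points, coloured by call), with the list median as a bar and the median of all named genes, -0.05, as a dashed line. NKG2D ligands spread to both sides of 0, RAET1L at 2.26 and MICB at -0.91, while shedding genes reach 2.72 at RHBDF1.

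The genes whose 4 values most resembled those of a falling ligand were found by the root mean square distance between log2 values centred on each gene's mean, over 4 arrays and 10262 brighter genes. KDM4C, a demethylase of H3K9, was nearest to MICA (distance 0.0078), ahead of PRDX4 (0.0082) and SYNJ2 (0.0086). SQOR (0.018), PRORP (0.018) and IMPACT (0.020) were nearest to MICB. PMS2 (0.0091), a DNA mismatch repair gene, was nearest to CALR, ahead of SUPT16H (0.010) and SSRP1 (0.014), which encode the subunits of the histone chaperone FACT. With 4 arrays such a likeness is unspecific: 718 genes lay within 0.1 of MICA, 242 of MICB and 461 of CALR.

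Over the series as a whole, arrays of a group correlated at r = 0.995 (F5446) and 0.994 (Ctrl) across named genes, and arrays of different groups at 0.943 to 0.945. SUV39H1 mRNA was 3.32-fold lower after F5446. Centring each array moved the median of all genes by 0.13 on the log2 scale and turned the share of higher calls to 55.6%, against 44.6% as deposited, so small changes depend on the scaling. Of 13 measured colon epithelial markers 3 rose and 6 fell, where 18.2% of all genes were higher and 22.7% lower. EPCAM (10.23 and 10.34 on the F5446 arrays, 10.97 and 11.11 on the Ctrl arrays) and KRT18 were bright, and KRT20 was dim. LGR5 (23.9-fold) and VIL1 (14.7-fold) fell the most. The rises were those of CEACAM5 (3.80-fold), CEACAM6 (2.10-fold, at a dim signal) and KRT19 (1.40-fold). The summed linear signal of the 13 was 4935 and 4988 on the F5446 arrays, against 9393 and 9351 on the Ctrl arrays. Of 9 measured markers of lymphocytes and NK cells 0 rose and 2 fell, PRF1 and CD4. The summed linear signal of the 9 was 307 and 337 on the F5446 arrays, against 914 and 908 on the Ctrl arrays. PRF1, at a log2 signal of 9.29 and 9.21 on the Ctrl arrays, made up most of the Ctrl sums. The receptor genes TIGIT, CD226 and CD96 lay between 2.78 and 3.62 on every array. Of 4 myeloid markers 1 rose (CD68) and 1 fell (LYZ), while CD14 and CSF1R did not pass. Their summed linear signals were 2962 and 2896 on the F5446 arrays, against 365 and 353 on the Ctrl arrays. CD68 made up most of each sum, at a log2 signal of 11.50 and 11.47 on the F5446 arrays, against 7.83 and 7.77 on the Ctrl arrays. Of 5 markers of fibroblasts and endothelium 1 rose (VIM) and 1 fell (LUM), while VWF, DCN and PECAM1 did not pass. The sums were 897 and 850 on the F5446 arrays, against 551 and 562 on the Ctrl arrays, and VIM made up most of each. The part of these markers in the results on the ligands was not tested.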

How the data were processed

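Total RNA was labelled as sense-strand cDNA and hybridised to single-colour arrays, 2 of F5446-treated and 2 of untreated SW620 cells. The deposited table holds 1 log2 signal per probe set and array for 53617 probe sets; the log2 scale was inferred from the range of the values. Partek is named, per the submitters' processing notes; how background, normalization and summary were handled is not stated in the sources used here. Array medians ran from 4.40 to 4.44. There are no detection calls, and precision is limited by the number of arrays.

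The annotation gave 16098 probe sets exactly 1 gene symbol, for 14884 genes. Only these counted as named, and any probe sets with no symbol or with several were left out. Values were used as deposited. The fit used lmFit and eBayes (intensity trend, group alone) of limma 3.58.1 under R 4.3.3. In it the variance of each gene was drawn in part from genes of like signal. Without the intensity trend the adjusted p of PVR was 0.00066 and that of CALR 0.0019 (limma), against 1.21e-06 and 1.08e-06 with it. Two-sided p-values were adjusted by Benjamini-Hochberg over all named genes, with a threshold of 0.05. The fit was tested on simulated data with independent errors and changes of at least 1 log2 unit in a small share of genes. That test does not cover smaller changes, array scaling or replicates from a shared culture. Errors are SEs of the fit. The members and lists were chosen with earlier results of these data known. Besides the members, the text names SUV39H1, up to 4 genes of largest change per list that passed without overlap of the groups, genes that complete a count of 5 or fewer, the 3 genes nearest to MICA, MICB and CALR, and genes said to be named after their values were seen; list members that did not pass are named as background. A human sequence reference was not used here, so no sequences or positions are given.

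Same-numbered arrays of the 2 groups had deviations that correlated at 0.044 across genes, so the replicate number was not taken as pairing. The alternatives covered the variance model, scaling, dim genes, probe sets, a replicate block and leaving out each array.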

Additional observations from a re-analysis of the deposited data

How the results depend on the processing

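The 12 alternatives kept the direction of all 10 ligand genes, and the calls of PVR, ULBP1, MICA, MICB, NECTIN2 and CALR held in each. CD274 did not pass in the 11 that could test it; leaving out dim genes removed it. ULBP2, at 0.79, did not pass without an intensity trend (adjusted p = 0.10), over all probe sets (0.15) or with the replicate block (0.10), and ran from 0.42 to 1.17 with 1 array left out. ULBP3, at -0.22, did not pass without a trend (0.14) or over all probe sets (0.12), nor at -0.093 with arrays centred, and ran from -0.24 to -0.20 with 1 array left out. B2M, at -0.22, passed with a robust fit (0.048), without dim genes (0.032) and with the replicate block (0.037), at -0.27 after quantile normalization (0.023) and at -0.40 with the mean of its probe sets (0.014). The causes were not tested. Over all probe sets, where 53617 were tested, 6274 were higher (11.7%) and 5483 lower (10.2%). Of the named genes, 2714 were higher (18.2%) and 3372 lower (22.7%), so the share called was smaller over all probe sets. The replicate block gave 2722 higher and 3342 lower. Counts within the gene lists moved by over 1.5 times in 26 cases, and 13 of 59 other genes that passed lost their call in at least 1 setting, 58 calls in all and none reversed. The lack of detection calls limits what can be said of dim genes, CD274 and RAET1E among them.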
